A study of Mus musculus with 12 samples.

Results

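The genes of the mouse major histocompatibility complex (MHC) and of antigen processing were described in RNA-seq libraries of brain and skull after ischemic injury. The members were all gene symbols of the deposited count table that start with H2-, together with B2m, Tap1, Tap2, Tapbp, Tapbpl, Psmb8, Psmb9, Psmb10, Psme1, Psme2, Ciita, Cd74, Cd1d1 and Erap1. They came to 38 of 22317 symbols, and 29 of the 38 lie on chromosome 17, which carries the MHC. By role they were the light chain B2m, 2 classical class I heavy chains (class Ia), 15 other class I genes (class Ib), 7 class II chains, 2 class II partners, 5 genes of peptide supply and loading, 5 genes of the immunoproteasome and its activator, and Cd1d1. H2-Aa and H2-DMb1 were not analysed here.

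Libraries came from wild-type male BALB/c mice that were 8 weeks old. In photothrombosis (PT) a dye in the blood, Rose Bengal, is lit with a laser so that the vessels under the light spot close. SB2 and SB4 are labelled brain cortex, 2 and 4 days after PT of the skull, and BS2 and BS6 are labelled interparietal bone of the skull, 2 and 6 days after PT of the brain, so that all 4 groups carry an injury of the neighbouring tissue. There were 3 libraries in each group, described in the methods as biological replicates, and the uninjured controls were not analysed here.

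Class I molecules pair a polymorphic heavy chain with B2m and show peptides from inside the cell to CD8+ T cells. Proteasomes cut those peptides, the TAP transporter carries them into the endoplasmic reticulum, and tapasin loads them. Class II molecules are alpha and beta chains of professional antigen-presenting cells, are guarded by the invariant chain Cd74 and show peptides from endosomes to CD4+ T cells. Interferon gamma is the best known inducer of both, through the coactivators Nlrc5 for class I and Ciita for class II, and healthy neurons are known for low class I levels.

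Tissue markers went against the labels in 2 of the 4 groups. The summed level of 8 neuron markers, in CPM (counts scaled by library size and TMM factors), was 33.8 to 70.6 in the libraries labelled SB2 and 9389 to 9445 in those labelled SB4. It was 9008 to 9264 in BS2 and 45.6 to 132 in BS6. The summed level of 6 fibrous matrix genes was 84889 to 100156 CPM in SB2, 10.8 to 23.1 in SB4, 19.2 to 45.3 in BS2 and 43698 to 179364 in BS6. So the libraries labelled SB2 (brain) and BS6 (skull) were rich in bone transcripts, and those labelled SB4 (brain) and BS2 (skull) were rich in brain transcripts. Whether the labels or columns of day 2 were exchanged was not tested, and SB4 vs. SB2 and BS6 vs. BS2 as labelled also set brain-rich against bone-rich libraries. Total counts were 14126082 to 18972654 per library, at which 1 count is 0.0528 to 0.0723 CPM. BS6 replicate 2 stood apart from the other libraries of its group (chi-square per degree of freedom 198 and 213 over genes, against 34.5 between the other two), and it held summed neutrophil markers of 25205 CPM where the lowest library of BS6 held 1440. In bulk samples fewer cells of a type and less RNA per cell cannot be told apart.

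Promoter sequences of the class I genes H2-K1, H2-Q6 and H2-Q7, of B2m and of the class II gene H2-Eb1 are shown. H2-Q6 and H2-Q7 are the members with the largest log2 fold changes in BS6 vs. SB2, H2-K1 is their classical relative, B2m is the member with the highest level, and H2-Eb1 is a class II chain. Sequences and gene starts are those of RefSeq on GRCm38.p6, read 5′ to 3′ on the strand of the gene. RefSeq promoter windows, 250 bases before to 50 after the start, were found for 25 of the 38 members. In the 3 class I promoters the capitals mark a kappaB motif (GGGGATTCC, bound by NF-kappaB) and the reverse complement of a CCAAT box. In B2m they mark a motif of the interferon-stimulated response element (GAAANNGAA) and the reverse complement of a CCAAT box. In H2-Eb1 they mark a Y box (CTGATTGG), the element of class II promoters that the factor NF-Y binds and which itself contains the reverse complement of CCAAT. The stretches lie at chr17:34000354-34000463, minus strand, at chr17:35424672-35424781, plus strand, at chr17:35439017-35439126, plus strand, at chr2:122147538-122147647, plus strand, and at chr17:34305753-34305852, plus strand, and no annotated exon overlaps them. In the GENCODE M21 annotation of GRCm38 the genes that follow them span chr17:33996017-34000347 for H2-K1, chr17:35424850-35430055 for H2-Q6, chr17:35439155-35443773 for H2-Q7, chr2:122147686-122153083 for B2m and chr17:34305867-34316674 for H2-Eb1.
H2-K1: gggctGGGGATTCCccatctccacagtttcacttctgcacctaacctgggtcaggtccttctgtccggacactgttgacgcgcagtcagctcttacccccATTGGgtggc
H2-Q6: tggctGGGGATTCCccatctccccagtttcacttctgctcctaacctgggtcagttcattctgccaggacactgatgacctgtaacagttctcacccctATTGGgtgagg
H2-Q7: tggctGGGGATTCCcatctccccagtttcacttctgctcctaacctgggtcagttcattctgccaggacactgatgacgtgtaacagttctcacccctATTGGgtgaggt
B2m: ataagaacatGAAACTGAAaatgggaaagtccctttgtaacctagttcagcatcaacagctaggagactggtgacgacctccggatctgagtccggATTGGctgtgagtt
H2-Eb1: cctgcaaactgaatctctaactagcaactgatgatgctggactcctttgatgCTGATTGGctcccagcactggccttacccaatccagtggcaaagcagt

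The printed stretches of H2-Q6 and H2-Q7 were identical at 108 of 111 aligned positions, or 97.3%, and those of H2-K1 and H2-Q6 at 93 of 111, or 83.8%. The kappaB letters were in the windows of 4 of the 25 members (H2-D1, H2-K1, H2-Q6 and H2-Q7) and in 0.25% of all 32851 windows of the same length, with both strands searched. The Y box was in 9 of 25 members and in 4.1% of all windows, and CCAAT in 18 of 25 and in 37.4%. GAAANNGAA was found in B2m, Erap1, H2-T22, H2-T23 and Psme1, against 8.56% of all windows, and the gamma-activated site TTCNNNGAA in H2-DMb2, H2-M3 and Psmb8, against 8.3%. The short X box AGCAACAG was in none of the 25 members' windows and in 2.26% of all windows. Letters were matched exactly, and the printed H2-Eb1 stretch holds AGCAACTG before its Y box, which differs in the letter before the last. The result is for these exact letters and does not show that class II windows lack an X box. The printed stretches of H2-K1, H2-Q6 and H2-Q7 hold tttcacttc after their kappaB letters. Read on the other strand, these letters hold GAA and then GAAA, an order that GAAANNGAA does not match. So the list for GAAANNGAA does not show that the class I windows outside it lack an interferon-stimulated response element. Shared letters are a description of the windows and no sign of binding. The reference is of the C57BL/6J strain, and the mice here were BALB/c, whose MHC haplotype differs.

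B2m, the light chain shared by all class I molecules, had the highest level per kilobase of exon among the 38 members in each of the 4 groups. It lay at 479.5, 443 and 520.0 CPM in the 3 libraries of SB2, 84.5, 92.0 and 41.7 in SB4, 34.4, 38.2 and 38.4 in BS2 and 1018, 829 and 817 in BS6. The groups did not overlap, and their order was BS6, SB2, SB4 and BS2. Per kilobase of exon this was 1033 ± 131 CPM in BS6 and 559 ± 45.0 in SB2 (mean ± SD, n = 3), against 84.6 ± 31.6 in SB4 and 43.0 ± 2.64 in BS2. The library SB4 replicate 3 was lower than the other two of its group, as it also was for most class I genes below.

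H2-D1 and H2-K1 are the classical class I heavy chains, which present peptides to CD8+ T cells. H2-D1 was measured at 176, 164 and 165 CPM in SB2, 31.9, 36.7 and 14.5 in SB4, 9.42, 12.3 and 11.7 in BS2 and 375, 579.7 and 288 in BS6. Its groups kept the order of B2m without overlap. H2-K1 had 15.1, 13.1 and 16.6 CPM in SB2, 2.56, 1.95 and 0.603 in SB4, 0.119, 1.02 and 0.651 in BS2 and 32.5, 36.5 and 26.4 in BS6. For H2-K1 the groups SB4 and BS2 overlapped. Per kilobase of exon the level of H2-D1 was 65.2 ± 2.76 CPM in SB2 and that of H2-K1 5.08 ± 0.589. Reads of both genes were mapped to the C57BL/6J alleles, and what this does to the level of each gene was not tested.

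**Figure D1:**
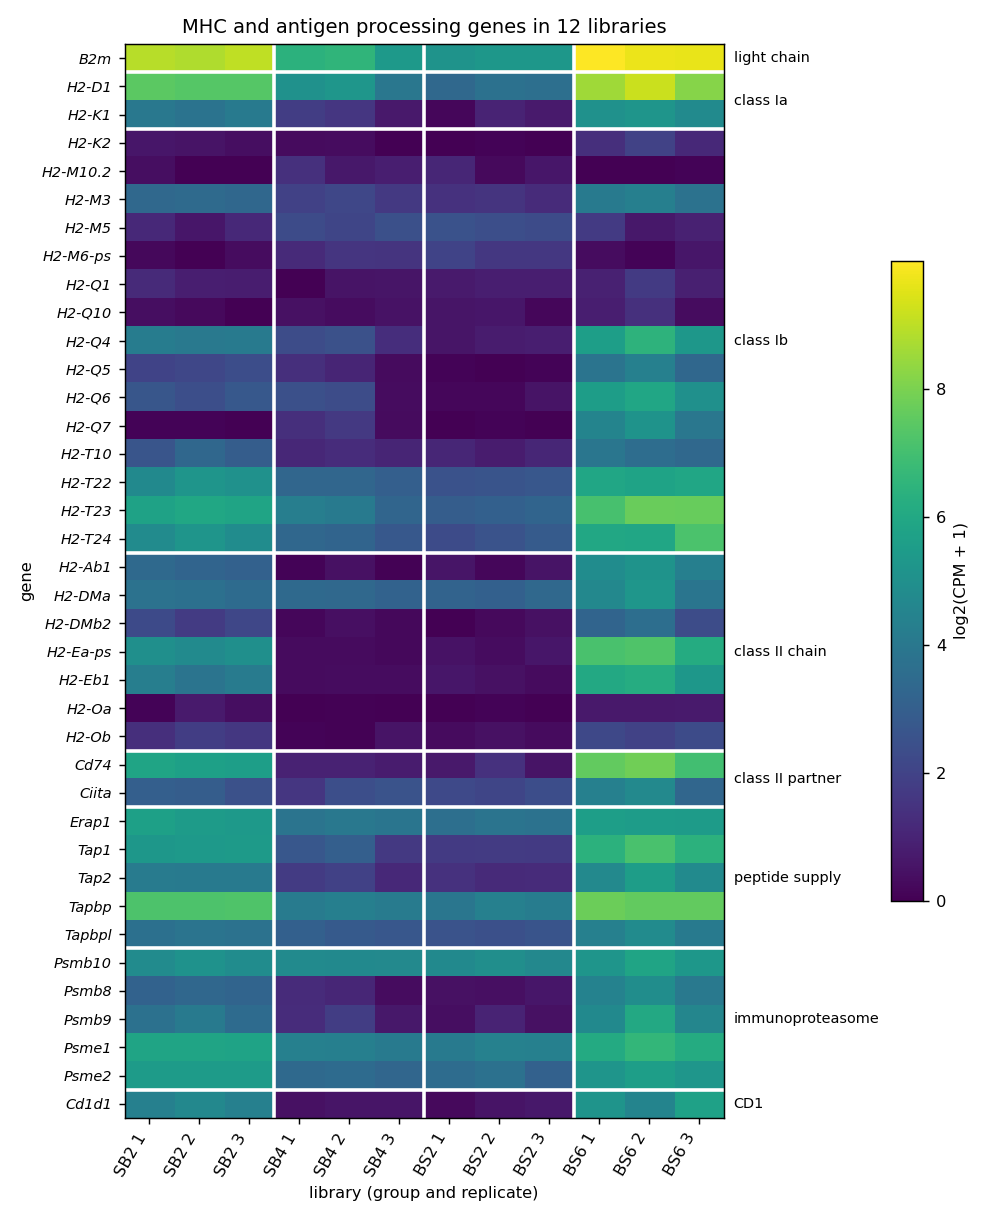
Level of each of the 38 members (rows, grouped by role) in each of the 12 libraries (columns), as log2(CPM + 1) on a color scale. Most rows are brightest in BS6, next in SB2 and dark in SB4 and BS2, while H2-M5 and H2-M6-ps are brighter in SB4 and BS2 than in SB2 and BS6 and Psmb10 is nearly even.

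The class Ib genes, which include nonclassical chains with limited polymorphism and several pseudogenes, spread over a wide range. H2-T23 (Qa-1, the ligand of the NKG2A receptor) was the highest of them per kilobase in all 4 groups, with 53.1, 61.0 and 56.2 CPM in SB2, 18.3, 16.0 and 8.61 in SB4, 6.70, 7.40 and 8.25 in BS2 and 136, 206 and 201 in BS6. The 4 groups did not overlap for H2-T23. H2-T22 and H2-T24 had means of 31.4 and 30.2 CPM in SB2, 8.33 and 7.76 in SB4, 5.14 and 5.02 in BS2, and 57.5 and 87.5 in BS6. H2-T22, H2-T23 and H2-T24 overlap a gene on the opposite strand, and the use of strand in counting is not given in the sources used here. H2-M3, which presents N-formylated peptides, had 9.50 ± 0.479 CPM in SB2, 2.76 ± 0.620 in SB4, 1.63 ± 0.239 in BS2 and 15.9 ± 3.09 in BS6. H2-M5 and H2-M6-ps were higher in the brain-rich groups, with H2-M5 at 0.976 ± 0.391 CPM in SB2, 3.86 ± 0.559 in SB4, 4.30 ± 0.454 in BS2 and 1.22 ± 0.864 in BS6. H2-M6-ps had 0.137 ± 0.124 CPM in SB2, 1.66 ± 0.335 in SB4, 2.41 ± 0.585 in BS2 and 0.282 ± 0.228 in BS6. For both genes the brain-rich libraries lay above all bone-rich ones. The other class Ib genes outside the H2-Q5 to H2-Q7 cluster were low except H2-Q4 and H2-T10, whose highest libraries had 86.1 and 14.3 CPM, and H2-K2, H2-M10.2, H2-Q1 and H2-Q10 stayed at or below 2.88 CPM in every library.

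The H2-Q genes encode or resemble Qa-2, a class Ib protein. H2-Q6 was read at 5.45, 4.33 and 5.81 CPM in SB2, 4.48, 4.01 and 0.274 in SB4, 0.119, 0.128 and 0.434 in BS2 and 46.8, 59.5 and 31.0 in BS6. BS6 stood above all other libraries, and SB4 replicate 3 fell among the libraries of BS2. Raw counts of H2-Q7 were 1, 1 and 0 in SB2, 0, 1 and 0 in BS2, 22, 41 and 4 in SB4 and 324, 546 and 227 in BS6. So H2-Q7 was at 0 or 1 count in each of the 6 libraries of day 2 and at 4 or more in each library of the later days. H2-Q5, annotated as a polymorphic pseudogene in the reference, was at 3.07, 3.41 and 4.17 CPM in SB2, 1.56, 1.06 and 0.219 in SB4, 0.0593, 0 and 0.0723 in BS2 and 13.2, 19.6 and 9.12 in BS6. Libraries of the 4 groups did not overlap for H2-Q5.

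H2-Q6 and H2-Q7 are close paralogs, and 5.99% of the windows of 150 bases in H2-Q6 transcripts also occur in H2-Q7, so their reads can be shared. Of the counts on the pair, H2-Q7 took 1.03%, 1.49% and 0% in the libraries of SB2 and 31.6%, 36.5% and 32.2% in those of BS6. Exact (Clopper-Pearson) 95% intervals were at most 8.04% in SB2 and at least 28.7% in BS6. In SB4 the shares were 25.9%, 35.0% and 44.4%, the last from 9 counts with an interval of 13.7% to 78.8%. BS2 held 2, 3 and 6 counts on the pair, too few to place its share. Intervals cover counting error only, since reads are not tagged as molecules. The intervals of the SB2 libraries and the BS6 libraries did not overlap.

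Class II chains were near the lower limit of detection in the brain-rich libraries, except for H2-DMa. H2-Ab1, the beta chain of I-A, had 9.54, 8.20 and 7.62 CPM in SB2 and 28.4, 34.5 and 19.0 in BS6, against 0.0711, 0.369 and 0.0548 in SB4 and 0.474, 0.128 and 0.434 in BS2. H2-Eb1, the beta chain of I-E, had 18.3, 13.4 and 17.1 CPM in SB2 and 65.2, 71.0 and 37.9 in BS6, with 0.213, 0.264 and 0.274 in SB4 and 0.533, 0.383 and 0.217 in BS2. Both genes separated bone-rich from brain-rich libraries fully, and SB4 and BS2 overlapped for both. H2-Ea-ps stands for the I-E alpha chain, a pseudogene in the reference strain that BALB/c mice express. Its level was 30.1, 26.4 and 30.6 CPM in SB2, 0.213, 0.211 and 0.164 in SB4, 0.415, 0.255 and 0.506 in BS2 and 139.6, 148 and 70.6 in BS6. Per kilobase, H2-Ea-ps was the highest class II chain in SB2 (28.0 ± 2.19 CPM) and BS6 (115 ± 41.1). H2-DMb2 and H2-Ob, beta chains of H2-M and H2-O, had means of 3.13 and 2.05 CPM in SB2 and 7.81 and 3.43 in BS6, and were under 1 CPM in every brain-rich library. H2-Oa, the alpha chain of the inhibitor H2-O, was the only member under 1 CPM in all 12 libraries.

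H2-DMa, the alpha chain of the peptide exchange factor H2-M, was measured at 12.5, 11.9 and 10.3 CPM in SB2, 9.74, 9.29 and 7.78 in SB4, 8.12, 7.27 and 9.33 in BS2 and 24.7, 36.6 and 13.8 in BS6. It was the one class II chain above 1 CPM in all 12 libraries. Of the summed CPM of the 7 class II chains it took 16.4 ± 1.86% in SB2 and 10.1 ± 1.64% in BS6, against 89.6 ± 3.11% in SB4 and 83.7 ± 0.648% in BS2 (mean ± SD, n = 3). Its annotated gene overlaps Brd2 on the opposite strand, whose reads cannot be told apart from those of H2-DMa without strand. The share of reads that came from Brd2 was not tested.

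Cd74, the invariant chain, and H2-Ea-ps were the highest class II genes per kilobase in the bone-rich groups, with Cd74 at 30.9 ± 2.58 CPM per kilobase in SB2 and 108 ± 30.9 in BS6. Cd74 had 56.6, 50.9 and 48.1 CPM in SB2 and 194, 226 and 124 in BS6, but 0.924, 0.950 and 0.713 in SB4 and 0.593, 1.66 and 0.434 in BS2. SB2 and BS6 did not overlap, and SB4 and BS2 did. Ciita, the coactivator of class II genes, varied much less, with 7.10, 6.63 and 4.60 CPM in SB2, 1.99, 4.33 and 4.88 in SB4, 3.67, 3.25 and 4.20 in BS2 and 19.7, 25.3 and 8.79 in BS6. The ratio of Cd74 to Ciita per kilobase was 49.4 ± 8.68 in SB2, 1.57 ± 0.946 in SB4, 1.47 ± 1.25 in BS2 and 62.3 ± 15.8 in BS6. Ciita overlaps Dexi on the opposite strand.

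**Figure D2:**
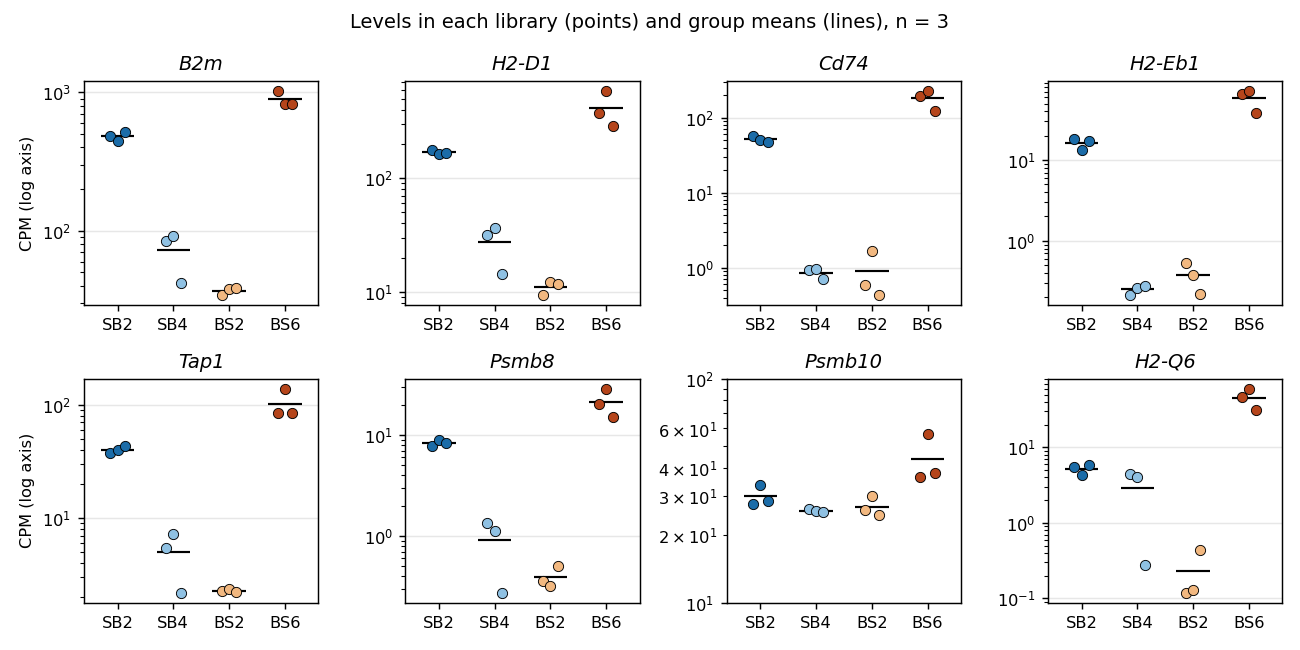
CPM of 8 members in each library (points, log axis) by group, with the group mean as a line (n = 3). BS6 and SB2 lie far above SB4 and BS2 for Cd74 and H2-Eb1, SB4 replicate 3 is the low point of SB4 for B2m, H2-D1, Tap1, Psmb8 and H2-Q6, and Psmb10 spans only 24.6 to 56.5 CPM.

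Genes of peptide supply were, like the heavy chains, highest in BS6 or SB2. Tap1, a subunit of the peptide transporter, had 37.6, 39.8 and 42.9 CPM in SB2, 5.48, 7.23 and 2.19 in SB4, 2.25, 2.36 and 2.24 in BS2 and 84.2, 138 and 83.9 in BS6. Tap2, the other subunit, had 16.7, 16.1 and 15.8 CPM in SB2, 2.35, 2.85 and 1.21 in SB4, 1.72, 1.28 and 1.37 in BS2 and 24.9, 45.8 and 26.7 in BS6. SB4 replicate 3 lay below all libraries of BS2 for both transporter genes. Tapbp, or tapasin, was at 145, 146 and 149 CPM in SB2, 16.9, 19.1 and 16.8 in SB4, 14.0, 19.6 and 17.4 in BS2 and 213, 191 and 190.0 in BS6. Tapbpl, a tapasin relative that edits peptides, was at 11.9, 13.5 and 12.7 CPM in SB2, 7.39, 6.07 and 5.59 in SB4, 4.92, 4.40 and 5.06 in BS2 and 19.2, 27.3 and 15.9 in BS6. Its gene shares a locus with Vamp1 on the opposite strand. Erap1, the aminopeptidase that trims peptides in the endoplasmic reticulum, was at 50.6, 43.4 and 40.7 CPM in SB2, 13.3, 14.9 and 13.7 in SB4, 11.5, 13.3 and 12.7 in BS2 and 47.4, 45.4 and 44.2 in BS6. For Erap1 the libraries of SB2 and BS6 overlapped, and the gene overlaps Cast on the opposite strand.

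Immunoproteasome subunits replace constitutive ones in the proteasome core. Psmb8 was at 7.73, 8.99 and 8.41 CPM in SB2, 1.35, 1.11 and 0.274 in SB4, 0.356, 0.319 and 0.506 in BS2 and 20.5, 28.6 and 15.3 in BS6. Psmb9 was at 12.4, 15.8 and 10.3 CPM in SB2, 1.42, 2.53 and 0.548 in SB4, 0.296, 1.02 and 0.362 in BS2 and 25.8, 65.1 and 23.3 in BS6. Both were highest in BS6 replicate 2 and lowest in brain-rich libraries. Psmb10, the third induced subunit, had 27.6, 33.6 and 28.4 CPM in SB2, 26.2, 25.6 and 25.4 in SB4, 26.1, 29.8 and 24.6 in BS2 and 36.5, 56.5 and 38.1 in BS6. Its libraries in SB2 and BS2 overlapped, unlike those of Psmb8 and Psmb9, and per kilobase it ranked after B2m alone among the members in SB4 and BS2. The proteasome activator subunit Psme1 had 55.4, 56.8 and 54.1 CPM in SB2, 19.3, 19.1 and 15.9 in SB4, 16.1, 19.7 and 19.3 in BS2 and 68.6, 97.5 and 70.7 in BS6. Its partner Psme2 had 43.7, 43.6 and 43.5 CPM in SB2, 9.60, 10.3 and 8.77 in SB4, 10.7, 12.2 and 7.52 in BS2 and 35.8, 47.0 and 37.0 in BS6. Of the transcript windows of Psme2, 12.1% also occur in its copy Psme2b, the largest such share among the members. Tap1 and Psmb9 lie head to head with RefSeq starts 225 bases apart and overlap in annotation, so reads between them cannot be told apart without strand.

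Each induced subunit was set against the constitutive subunit it replaces, per kilobase. Psmb8 made up 12.5, 17.4 and 15.8% of Psmb8 plus Psmb5 in SB2, 5.87, 3.84 and 1.18% in SB4, 1.33, 0.934 and 2.59% in BS2 and 47.3, 37.7 and 33.6% in BS6. BS6 was above all other libraries. Psmb9 made up 6.07 ± 1.08% of Psmb9 plus Psmb6 in SB2, 1.56 ± 1.11% in SB4, 0.557 ± 0.364% in BS2 and 20.5 ± 8.35% in BS6 (mean ± SD, n = 3). For Psmb10 the share of Psmb10 plus Psmb7 was 52.4 ± 3.36%, 49.7 ± 1.17%, 48.2 ± 2.59% and 70.5 ± 5.28% in the same order. Of the 3 shares, that of Psmb10 differed least between SB2 and the brain-rich groups, and all 3 were highest in BS6. Psmb7, the denominator of the last share, was itself lower in BS6, at 38.2, 35.5 and 33.6 CPM against 58.4, 54.9 and 49.4 in SB2.

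**Figure D3:**
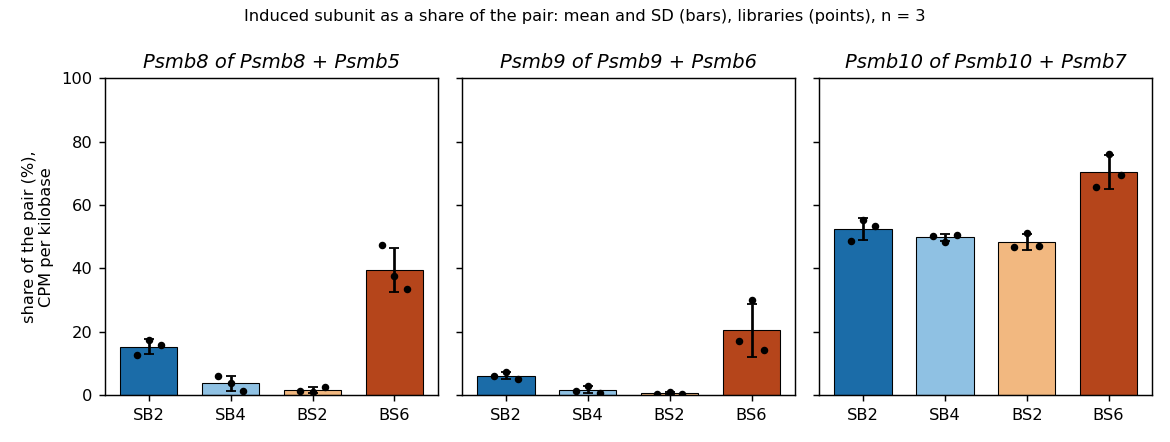
Share of each induced proteasome subunit (percent of its pair, CPM per kilobase) in SB2, SB4, BS2 and BS6, with bars for the mean, error bars for the SD and points for the 3 libraries. BS6 is highest in each panel, and the Psmb10 share stays between 46.6% and 55.1% in the other 9 libraries.

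Cd1d1, which presents lipids to natural killer T cells, lay at 19.5, 24.3 and 19.6 CPM in SB2, 0.356, 0.475 and 0.493 in SB4, 0.178, 0.446 and 0.579 in BS2 and 35.4, 21.6 and 51.7 in BS6. SB2 and BS6 overlapped, and so did SB4 and BS2. Of its transcript windows, 4.64% also occur in Cd1d2.

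In libraries labelled brain, SB4 vs. SB2, B2m, both classical class I chains, Cd74 and 4 of 5 peptide supply genes were lower in the libraries labelled day 4, which are the brain-rich ones. Of 33 members that passed the filter on low counts, 26 were called lower (28.6% of all 17293 genes tested were) and 2 higher (27.8% were), at an adjusted p below 0.05 and an absolute log2 fold change over 1 in edgeR. The median log2 fold change of the members tested was -2.28, and that of all genes -0.01. The members called higher were H2-M5, with a log2 fold change of 1.97 ± 0.31, and the pseudogene H2-M6-ps, with 3.52 ± 0.54 (value ± SE), both with a library under 10 counts in SB2. Passing the filter through the higher group alone forces a difference, and 21 members had at least 10 counts in each of the 6 libraries, of which 17 were called lower and the other 4 not called. The members tested and not called were H2-Q6, H2-DMa, Ciita, Tapbpl and Psmb10.

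Cd74, with at least 10 counts in every library, was 59.3-fold lower in SB4 (log2 fold change -5.89 ± 0.14, adjusted p = 1.32e-11). H2-Ea-ps, H2-Eb1, H2-Ab1 and Cd1d1 passed the filter through SB2 alone and are given as a description. Their fitted log2 fold changes were -7.15 ± 0.19, -5.95 ± 0.25, -5.52 ± 0.40 and -5.52 ± 0.21, on totals of 10, 13, 9 and 23 counts in SB4 against 1439, 808, 419 and 1037 in SB2. That of H2-Ab1 was -6.90 without SB4 replicate 2. H2-DMa differed by -0.36 ± 0.14 and Ciita by -0.67 ± 0.31, with adjusted p-values of 0.0361 and 0.065, and neither reached the fold. Among class I genes B2m fell by 2.71 on the log2 scale, H2-D1 by 2.59 and H2-K1 by 3.15, with adjusted p-values of 0.000816, 0.00155 and 5.01e-05. H2-Q5 was at -1.94 ± 0.46, with 4 counts in SB4 replicate 3. H2-Q6 gave -0.84 ± 0.77, adjusted p = 0.35, with overlapping libraries. H2-Q7 was not tested, and its 67 counts in SB4 against 2 in SB2 make a ratio of 32.3 with a 95% counting interval of 8.59 to 272.

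Peptide supply and proteasome genes fell too, with exceptions. The log2 fold change was -3.00 ± 0.37 for Tap1, -2.91 ± 0.24 for Tap2, -3.04 ± 0.08 for Tapbp and -1.67 ± 0.11 for Erap1, all called. Tapbpl, at -0.99 ± 0.15, adjusted p = 7.31e-05, passed the test but not the fold. Psmb9 changed by -3.06 ± 0.43, Psme1 by -1.61 ± 0.09 and Psme2 by -2.18 ± 0.09, all called lower. Psmb8, which had 5 counts in SB4 replicate 3 and passed the filter through SB2 alone, was at -3.21 ± 0.36 as a description. Without SB4 replicate 2 the value of Psmb9 was -3.72. Psmb10 differed by -0.20 ± 0.10, adjusted p = 0.0745, not called.

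Tissue markers also differed between SB4 and SB2. All 8 neuron markers were called higher in SB4 and all 6 fibrous matrix genes lower. B cell markers summed to 56.8 to 71.2 CPM in SB2 and to 3.78 to 5.12 in SB4, and 7 of 7 were called lower. Macrophage and microglia markers summed to 815 to 822 CPM in SB2 and 196 to 212 in SB4, with 6 of 8 lower and 1 higher. Much of the sum in SB2 was Tmem119, at 326, 314 and 334 CPM against 18.1, 15.9 and 16.2 in SB4. P2ry12 went the other way, at 10.9, 7.61 and 12.3 CPM in SB2 and 38.8, 37.0 and 42.7 in SB4. Neutrophil markers summed to 839.9 to 1493 CPM in SB2 and 2.19 to 4.62 in SB4, with all 6 called lower. Dendritic cell markers were mixed. Their sum was 31.4 to 39.1 CPM in SB2 and 43.1 to 45.9 in SB4, with 2 of 6 tested called higher and 3 lower. Flt3 and Siglech were higher in SB4, with Siglech at 3.07, 1.05 and 2.06 CPM in SB2 and 13.7, 12.9 and 13.7 in SB4. Clec9a, Cd209a and Itgax were lower, with Clec9a at 2.84, 2.36 and 3.15 CPM in SB2 and 0.213, 0.106 and 0.164 in SB4. Xcr1 was at 0 in SB4. The part of these cells in the result was not tested.

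In libraries labelled skull, BS6 vs. BS2, most members were higher in the libraries labelled day 6, which are the bone-rich ones, among them B2m, H2-D1 and all 5 peptide supply genes. Of 35 members that passed the filter, 31 were called higher (29% of all 17311 genes tested were) and 2 lower (26.5% were), and the median log2 fold change was 4.59 against 0.02 for all genes. Those called lower were again H2-M5 (-1.82 ± 0.47) and H2-M6-ps (-3.07 ± 0.55), both with a library under 10 counts in BS6. H2-Q1 (0.84 ± 0.47, adjusted p = 0.147) and Psmb10 (0.70 ± 0.20, adjusted p = 0.0156) were not called. With at least 10 counts in each of the 6 libraries there were 18 members, of which 16 were called higher and the other 2 not called. The median log2 fold change of these 18 was 3.38. Without BS6 replicate 2, the library that stood apart, the calls were the same 31 and 2 members.

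H2-Q4 to H2-Q7, H2-K1, H2-Ea-ps, H2-Eb1, H2-Ab1, Cd74, Psmb8, Psmb9 and Cd1d1 each had a library under 10 counts in BS2 and passed the filter through BS6 alone, so that their values are a description. H2-Q7 had 1 count in BS2, in replicate 2, and 1097 in BS6, a ratio of 1095 with a 95% counting interval of 196 to 43306. H2-Q5 had 2 counts and 653, a ratio of 326 (89.9 to 2698). The fitted log2 fold change was 8.24 ± 0.45 for H2-Ea-ps, 7.21 ± 0.40 for H2-Eb1, 6.27 ± 0.44 for H2-Ab1, 7.64 ± 0.52 for Cd74, 7.67 ± 0.49 for H2-Q6, 6.44 ± 0.44 for H2-Q4 and 5.74 ± 0.52 for H2-K1. Without BS2 replicate 2 it was 8.41 for Cd74 and 6.39 for H2-K1, and without BS2 replicate 3 it was 8.44 for H2-Q6. That of H2-Q7 was 9.63 and without BS2 replicate 2, which left 0 counts in BS2, 11.50.

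Members with at least 10 counts in every library rose as well. B2m was higher by 4.59 ± 0.16, adjusted p = 3.90e-06 on the log2 scale, and H2-D1 was 37.2-fold higher (5.22 ± 0.32, adjusted p = 2.35e-05). H2-DMa rose by 1.60 ± 0.36 and Ciita by 2.27 ± 0.40.

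Peptide supply genes rose as well. The log2 fold change was 5.47 ± 0.26 for Tap1, 4.47 ± 0.32 for Tap2, 3.54 ± 0.15 for Tapbp, 2.12 ± 0.23 for Tapbpl and 1.87 ± 0.11 for Erap1. Psme1 rose by 2.10 ± 0.18 and Psme2 by 1.98 ± 0.22. All of these were called, with adjusted p-values of at most 0.000237. As a description, Psmb8 was at 5.76 ± 0.35, Cd1d1 at 6.50 ± 0.51 and Psmb9 at 6.07 ± 0.66, the last at 6.81 without BS2 replicate 2 and at 5.44 without BS6 replicate 2.

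Markers of bone-rich tissue moved in the same direction, with all 6 fibrous matrix genes and 7 of 7 B cell markers called higher and all 8 neuron markers lower. Summed B cell markers were 3.38 to 4.41 CPM in BS2 and 79.8 to 146 in BS6. Macrophage and microglia markers summed to 191 to 205 CPM in BS2 and 599 to 937 in BS6, with 6 of 8 called higher and 1 lower. Neutrophil markers summed to 0.711 to 1.45 CPM in BS2 and 1440 to 25205 in BS6, with all 6 called higher. Dendritic cell markers summed to 44.1 to 50.1 and 43.6 to 78.5 CPM, overlapping, with 4 of 7 called higher and 1 lower. Siglech was at 16.5, 14.2 and 13.7 CPM in BS2 and 2.40, 2.19 and 4.07 in BS6. Clec9a went the other way, at 0.119, 0.319 and 0.579 CPM in BS2 and 5.54, 10.9 and 3.36 in BS6. T cell markers summed to 1.79 to 2.96 and 16.4 to 24.02 CPM, with 4 of 4 tested called higher. Their part in the result was not tested.

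**Figure D4:**
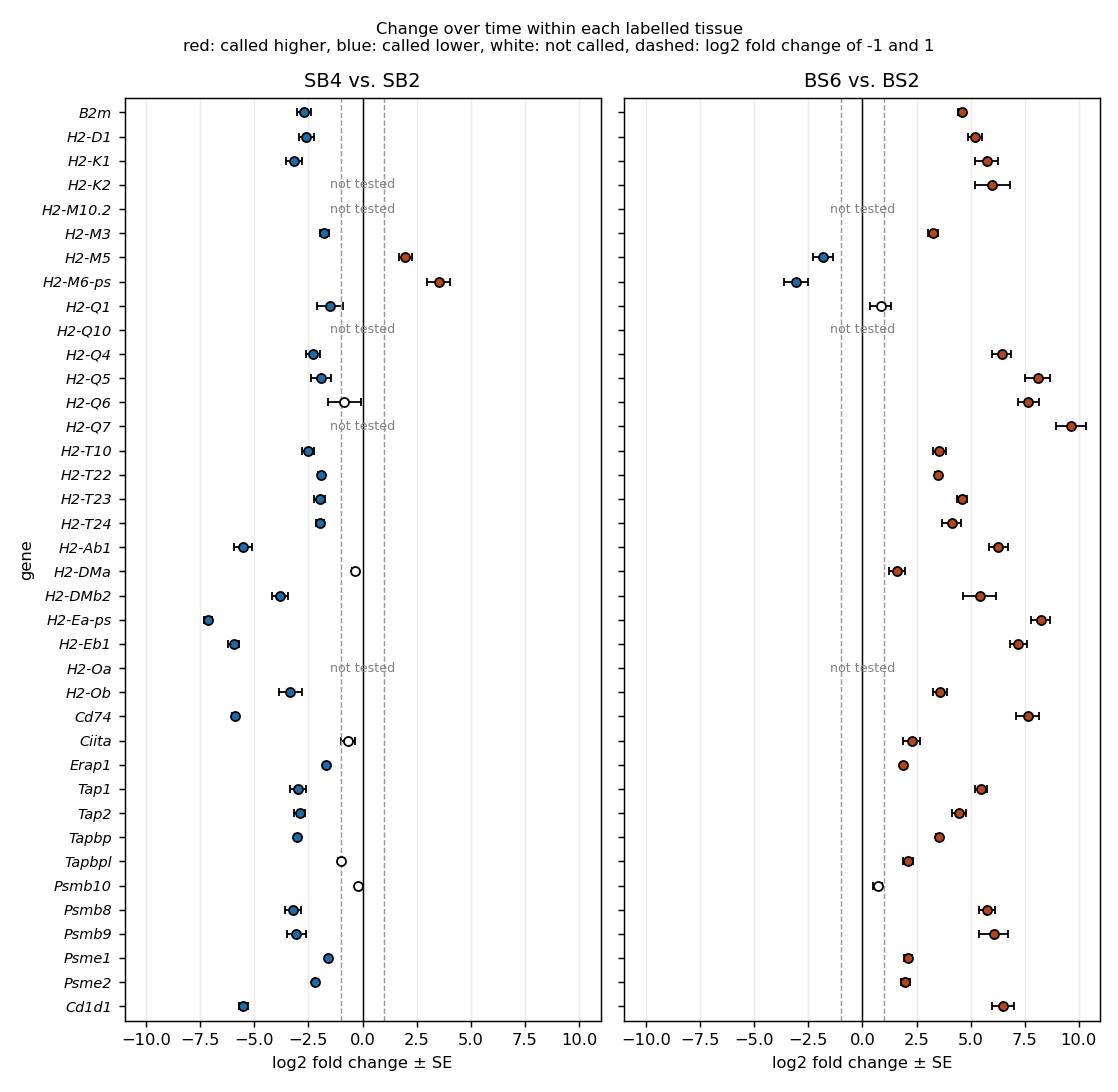
Log2 fold change with its standard error for each member in SB4 vs. SB2 and in BS6 vs. BS2, colored by edgeR call, with members that did not pass the filter marked as not tested. Most members lie left of 0 in the first panel and right of 0 in the other, and H2-M5 and H2-M6-ps lie on the opposite side.

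The changes over time were then set against each other in 1 fit of the 12 libraries. The difference takes the log2 change of BS6 vs. BS2 minus that of SB4 vs. SB2. Of 36 members tested, 34 passed at the same thresholds (73.6% of all 18068 genes tested did), 31 with a difference above 0 and 3 below, H2-M5, H2-M6-ps and H2-M10.2. Many of these entered the fit through the groups where they are high. With at least 10 counts in all 12 libraries there were 17 members, of which 16 passed with a difference above 0 and the other, Psmb10, did not pass. The members that did not pass were Psmb10, at a log2 difference of 0.92 ± 0.23 (adjusted p = 0.00257), and H2-Q7, at 4.87 ± 2.89 (adjusted p = 0.135). Labelled tissue, injured site and day differ together here, and bone-rich and brain-rich content swaps sides, so that these cannot be told apart.

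Between the bone-rich groups, BS6 vs. SB2, several class II chains, Cd74, H2-Q4 to H2-Q6, both classical class I chains, Tap1 and Psmb8 were higher in BS6. In all, 14 of 34 members tested were called higher and 0 lower, and with a replicate block 0 were called. Among all 16329 genes tested, 1.11% were called higher and 0.741% lower. With at least 10 counts in each of the 6 libraries there were 31 members, of which 12 were called higher and the other 19 not called. The median log2 fold change of the members was 1.18, and that of all genes 0.02. For 29 of the 34 all libraries of BS6 were above all of SB2, and for 0 were all below, where of all genes tested 20.9% were above and 17.2% below. At an unadjusted p below 0.05 there were 29 members higher and 0 lower (14.6% of all genes were higher and 14.6% lower). DESeq2 called 19 members higher and 0 lower (3.39% and 1.44% of its 22174 genes). This comparison joins a difference in labelled tissue, injured site and day, which cannot be told apart. Bone markers differed in part. The 6 osteoblast and osteocyte markers summed to 3272 to 5243 CPM in SB2 and 1235 to 2865 in BS6, with no overlap. Of these, edgeR called 0 and DESeq2 1 higher and 1 lower. Much of the sum was Ibsp, at 3533, 2084 and 3949 CPM in SB2 and 823, 508 and 1346 in BS6, while Phex was higher in BS6. Summed fibrous matrix genes (84889 to 100156 and 43698 to 179364 CPM) and osteoclast markers (2725 to 2996 and 1568 to 3364 CPM) overlapped.

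Of 6 class II chains tested 3 rose in BS6, together with the invariant chain Cd74. Cd74 was 3.41-fold higher (log2 fold change 1.77 ± 0.23, adjusted p = 0.0293), H2-Ea-ps 4.02-fold (2.01 ± 0.29, adjusted p = 0.0311), H2-Eb1 3.49-fold (1.80 ± 0.26, adjusted p = 0.0311) and H2-Ab1 3.15-fold (1.66 ± 0.24, adjusted p = 0.0311). Ciita (1.52 ± 0.40, adjusted p = 0.0761) and H2-DMa (1.08 ± 0.34, adjusted p = 0.105) were not called by edgeR in the fit of 6 libraries, but were called higher by DESeq2 and in the fit of all 12 libraries, and their libraries did not overlap. DESeq2 also called H2-DMb2 and the class Ib gene H2-T24. B cell markers summed to 56.8 to 71.2 CPM in SB2 and 79.8 to 146 in BS6 with 0 of 7 called by edgeR, 6 of 7 higher at an unadjusted p below 0.05 and 4 called higher by DESeq2. Dendritic cell markers summed to 31.4 to 39.1 and 43.6 to 78.5 CPM with 1 of 7 called higher and 5 higher at an unadjusted p below 0.05. Macrophage and microglia markers summed to 815 to 822 CPM in SB2 and 599 to 937 in BS6, with 0 of 8 called by edgeR or DESeq2 and 1 higher at an unadjusted p below 0.05. Much of this sum was Tmem119, at 326, 314 and 334 CPM in SB2 and 202, 135 and 340 in BS6. Tmem119 was low in the brain-rich groups, so the sum is no plain measure of macrophages here. All 6 neutrophil markers were higher at an unadjusted p below 0.05, and 5 were called higher by DESeq2 and 0 by edgeR. Erythroid markers summed to 1291 to 4529 CPM in SB2 and 7729.8 to 13182 in BS6, with 1 of 5 called higher by edgeR and 5 by DESeq2. T cell markers summed to 9.01 to 11.2 CPM in SB2 and 16.4 to 24.02 in BS6, with 0 of 5 called by edgeR, 1 called higher by DESeq2 and 2 higher at an unadjusted p below 0.05. The part of these cells in the result was not tested.

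In the class I pathway H2-Q7 and H2-Q6 had the largest values. H2-Q7 passed the filter through BS6 alone, with 2 counts in SB2 and 1097 in BS6, a ratio of 583 with a 95% counting interval of 161 to 4821. H2-Q6 was 8.59-fold higher (3.10 ± 0.27, adjusted p = 0.0194) and H2-Q5 3.85-fold (1.94 ± 0.32, adjusted p = 0.0335). H2-D1 was 2.41-fold higher (1.27 ± 0.26, adjusted p = 0.0458) and H2-K1 2.08-fold (1.06 ± 0.16, adjusted p = 0.0317). Both were not called without BS6 replicate 2, H2-D1 not with total counts as scaling and H2-K1 not in the fit of all 12 libraries. B2m passed the test but not the fold, at 0.85 ± 0.15, adjusted p = 0.037. H2-Q4 and H2-T23 were also called, with log2 fold changes of 1.78 ± 0.31 and 1.64 ± 0.18. H2-K2 had 5 to 9 counts a library in SB2 and passed the filter through BS6 alone, and its value of 2.10 ± 0.45 is a description.

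Of the genes for peptide supply edgeR called Tap1, at 1.31 ± 0.22, adjusted p = 0.0341, and of the proteasome genes Psmb8, at 1.33 ± 0.24, adjusted p = 0.0395. Tap2 (0.97 ± 0.25, adjusted p = 0.0688), Tapbp (0.40 ± 0.10, adjusted p = 0.0616) and Tapbpl (0.68 ± 0.21, adjusted p = 0.103) missed the threshold. Erap1 gave -0.01 ± 0.11 and Psme2 -0.16 ± 0.13, the only members tested with a value below 0. Psmb9 (1.54 ± 0.44, adjusted p = 0.086), Psme1 (0.48 ± 0.15, adjusted p = 0.106), Psmb10 (0.52 ± 0.20, adjusted p = 0.146) and Cd1d1 (0.75 ± 0.31, adjusted p = 0.174) were not called by edgeR. Psmb9 was at 0.90 without BS6 replicate 2. DESeq2 also called Psmb9 higher, and the edgeR fit of all 12 libraries called Psmb9 and Tap2 as well but not H2-K1.

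These calls rest on all 6 libraries and were lost with a replicate block, under which 0 of all genes were called. Leaving out SB2 replicate 1, 2 or 3 left 0 members and 0 of all genes called by edgeR. At an unadjusted p below 0.05, 24, 28 and 24 members were still higher and 0 lower. The share of all genes at that threshold is given for the fit of 6 libraries alone, at 14.6% in each direction. Without BS6 replicate 1 there were 3 members called higher (17 of all 16701 genes tested), without replicate 2 there were 13 (397 of 16608) and without replicate 3 there were 6 (15 of 16716). H2-Q6 and H2-Q7 were called in each of these, and without replicate 2 the calls of H2-D1 and H2-K1 were lost and Cd1d1 was gained.

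Between the brain-rich groups, SB4 vs. BS2, edgeR called 0 of the 19 members with at least 10 counts in each of the 6 libraries. The only call among all members tested was H2-Q4, a class Ib gene that had a BS2 library under 10 counts. In all, 1 of 25 members tested was called higher and 0 lower. Among all 16278 genes tested, 0.086% were called higher and 0.0614% lower. H2-Q4 passed the filter through SB4 alone, and its fitted log2 fold change of 2.35 ± 0.43 is a description. Its level was 3.98, 4.59 and 1.48 CPM in SB4 and 0.474, 0.701 and 0.796 in BS2. The groups did not overlap. With 8 counts in BS2 replicate 1 it was not tested under the filter on at least 10 counts in every library, and it was not called without SB4 replicate 1 or without any single library of BS2. At an unadjusted p below 0.05 there were 10 members higher and 0 lower (6.32% and 5.56% of all genes tested), and DESeq2 called 2 higher and 0 lower (0.131% and 0.0765% of its 22215 genes). The median log2 fold change of the members was 0.40, and 13 members did not pass the filter, among them H2-Q5, H2-Q6, H2-Q7, Psmb8, Cd1d1 and all class II chains but H2-DMa.

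Apart from H2-Q4, genes of the class I pathway had the larger values, in both directions, without being called. Of the 25 members tested, 18 had a log2 fold change above 0. All libraries of SB4 were above all of BS2 for 8 members tested and below for 2, H2-Q1 (-1.14 ± 0.57) and H2-M6-ps (-0.52 ± 0.28). H2-Q1 had 0 counts in SB4 replicate 1, and its value is a description. B2m gave 0.98 ± 0.36, adjusted p = 0.417, H2-D1 1.32 ± 0.43, adjusted p = 0.366, H2-K1 1.50 ± 0.67, adjusted p = 0.425, Tap1 1.12 ± 0.40, adjusted p = 0.303 and Psmb9 1.42 ± 0.60, adjusted p = 0.384. H2-K1 and Psmb9 each had a BS2 library under 10 counts, so that their values are a description. Without BS2 replicate 2 the values of H2-K1 and Psmb9 were 2.18 and 2.19, and without SB4 replicate 2 that of Psmb9 was 0.75. H2-T22 passed the test at 0.70 ± 0.16, adjusted p = 0.036, below the fold. The summed class I heavy chains were at 93.8, 95.2 and 49.9 CPM in SB4 and 38.3, 42.0 and 43.7 in BS2, so that SB4 replicate 3 lay nearest to BS2. Without SB4 replicate 3, 9 members were called higher, H2-Q4 together with H2-D1, H2-Q5, H2-Q6, H2-Q7, H2-T23, B2m, Psmb9 and Tap1, and of all 16546 genes then tested 68 were called higher. Among these members H2-Q4, H2-Q5, H2-Q6, H2-Q7 and Psmb9 each had a BS2 library under 10 counts, so that their calls are a description. Counts of H2-Q7 were 67 in SB4 and 1 in BS2, a ratio of 60.6 (95% counting interval 10.5 to 2430), and those of H2-Q5 46 and 2, a ratio of 20.8 (5.44 to 177).

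Other members showed no called difference between the brain-rich groups. The log2 fold change was -0.07 ± 0.44 for Cd74, 0.04 ± 0.26 for Ciita, 0.12 ± 0.15 for H2-DMa, 0.54 ± 0.32 for Tap2, 0.06 ± 0.12 for Tapbp, 0.40 ± 0.17 for Tapbpl and 0.17 ± 0.11 for Erap1. It was -0.06 ± 0.09 for Psmb10, -0.02 ± 0.11 for Psme1 and -0.09 ± 0.15 for Psme2. Without BS2 replicate 2 the value of Cd74 was 0.72. H2-Ea-ps, H2-Eb1, H2-Ab1 and Cd1d1 had totals of 10, 13, 9 and 23 counts in SB4 and 18, 18, 16 and 18 in BS2, and did not pass the filter. The libraries of H2-Ea-ps did not overlap, with those of SB4 lower, and those of the other 3 genes did. Macrophage and microglia markers summed to 196 to 212 CPM in SB4 and 191 to 205 in BS2, with 0 of 8 called by edgeR or DESeq2 and 1 lower at an unadjusted p below 0.05. Neutrophil markers summed to 2.19 to 4.62 CPM in SB4 and 0.711 to 1.45 in BS2, and the 1 that was tested was called higher. Their part in the values above was not tested.

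**Figure D5:**
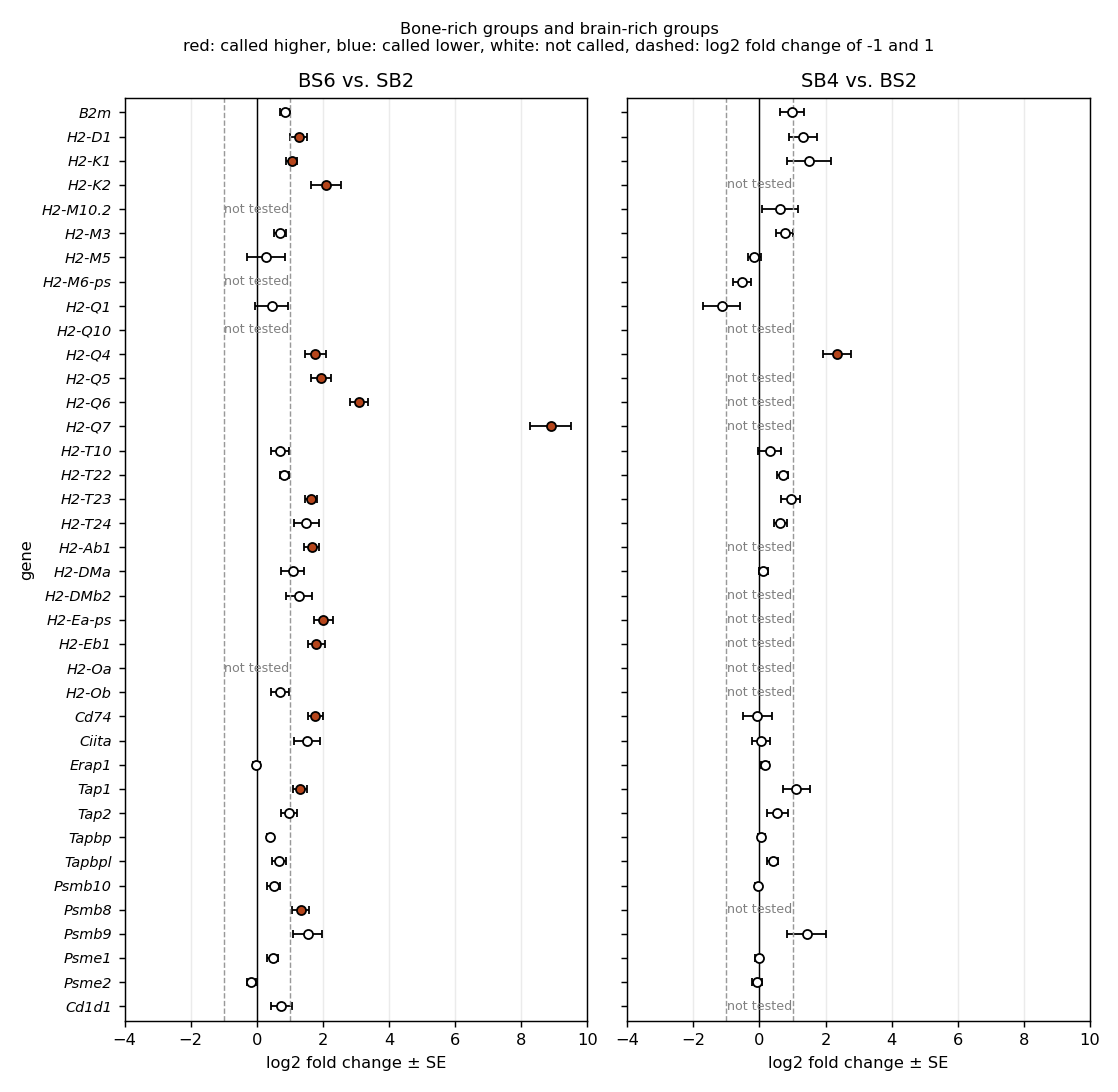
Log2 fold change with its standard error for each member in BS6 vs. SB2 and in SB4 vs. BS2, colored by edgeR call, with members that did not pass the filter marked as not tested. In BS6 vs. SB2 the 14 called members are all right of 1, with H2-Q7 farthest, and in SB4 vs. BS2 only H2-Q4 is called.

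Other genes of the pathway were counted from 5 lists. Of 17 regulators tested, 2 were called higher in BS6 than in SB2 (6 higher and 2 lower at an unadjusted p below 0.05). They were Nlrc5, the class I coactivator (2.08 ± 0.32, adjusted p = 0.0325), and Irf8, a transcription factor of myeloid and B cells (1.52 ± 0.25, adjusted p = 0.0341). Nlrc5 was at 11.7, 12.1 and 11.2 CPM in SB2, 2.56, 4.86 and 0.493 in SB4, 0.889, 0.319 and 1.01 in BS2 and 41.0, 76.6 and 34.1 in BS6. As for the class I genes, SB4 replicate 3 was the low library of its group. Nlrc5 passed the filter through SB2 alone in SB4 vs. SB2 and through BS6 alone in BS6 vs. BS2. Its calls in those comparisons, counted below, are a description. Irf1, an interferon-induced activator of class I genes, had 0.98 ± 0.30, adjusted p = 0.103, and was not called. In SB4 vs. SB2 7 of 17 regulators were called lower and 1 higher, and in BS6 vs. BS2 8 higher and 1 lower. For these and the lists that follow, the shares among all genes tested were 28.6% lower and 27.8% higher in SB4 vs. SB2 and 29% higher and 26.5% lower in BS6 vs. BS2. At an unadjusted p below 0.05 they were 42.3% lower and 41.7% higher in SB4 vs. SB2, 39% higher and 37.7% lower in BS6 vs. BS2 and 14.6% in each direction in BS6 vs. SB2. In SB4 vs. BS2 edgeR and DESeq2 called 0, with 3 higher and 1 lower at an unadjusted p below 0.05.

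Of 16 constitutive proteasome genes, 2 were called lower in SB4 vs. SB2, with 13 lower and 1 higher at an unadjusted p below 0.05 and a median log2 fold change of -0.58 against -0.01 for all genes. In BS6 vs. BS2 and in BS6 vs. SB2, edgeR and DESeq2 called 0 of the 16, and at an unadjusted p below 0.05 there were 5 higher and 2 lower in the former and 11 lower in the latter. Their median log2 fold change was 0.13 in BS6 vs. BS2 and -0.45 in BS6 vs. SB2, where that of all genes was 0.02 in both. Of 10 chaperones and trimming enzymes, 7 were called lower in SB4 vs. SB2 and 6 higher in BS6 vs. BS2, and in BS6 vs. SB2 edgeR called 1 lower, Calr or calreticulin, a chaperone of class I loading (-1.03 ± 0.15, adjusted p = 0.0311), where DESeq2 called 1 higher and 1 lower. Ifi30, the thiol reductase of class II processing, was called lower in SB4 vs. SB2 (-4.84 ± 0.17, adjusted p = 3.77e-10) and not in BS6 vs. SB2 (0.12 ± 0.23, adjusted p = 0.764). All 5 class I-like genes outside the H2 complex that were tested were lower in SB4 than in SB2 and higher in BS6 than in BS2, and in BS6 vs. SB2 2 were higher and 2 lower at an unadjusted p below 0.05 with 0 called by edgeR or DESeq2. Among them Ulbp1, with means of 0.388 CPM in SB4 and 0.264 in BS2, passed the filter through SB2 or BS6 alone, and its calls are a description. In SB4 vs. SB2 Hfe and Procr, at 0.569 and 0.356 CPM in SB4 replicate 1, passed through SB2 alone. Those calls are a description too. Of 5 costimulation genes tested, 3 were lower in SB4 vs. SB2 and 5 higher in BS6 vs. BS2, and in BS6 vs. SB2 edgeR called 0 and DESeq2 3 higher, with Icosl, the ligand of the T cell receptor ICOS, at 1.48 ± 0.44, adjusted p = 0.0958. Cd40, with means of 0.377 CPM in SB4 and 0.154 in BS2, also passed the filter through SB2 or BS6 alone, and its calls are a description.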

How the data were processed

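Poly(A) RNA of brain cortex and skull was sequenced as paired-end libraries, and the authors trimmed the reads, mapped them with HISAT2 2.1.0 to mm10 and deposited raw counts per gene symbol. The counting program, the annotation, the use of strand and whether a batch correction (ComBat_seq) preceded the counts are not given in the sources used here. The members and lists were chosen with earlier results of these data known. Groups follow the labels, with 3 libraries in each of 4 groups and total counts of 14126082 to 18972654, at which 1 count is 0.0528 to 0.0723 CPM.

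From the counts, CPM was computed with TMM factors over all 12 libraries, and each comparison was fitted on its 6 libraries by the robust quasi-likelihood test of edgeR 4.0.16 (R 4.3.3) after TMM scaling and the filterByExpr filter, whose minimum count was 10. P-values were adjusted over all genes tested (Benjamini-Hochberg). Calls needed an adjusted p below 0.05 together with a log2 fold change above 1 in size. The difference of the changes over time was fitted on 12 libraries. The scripts were tested on simulated data. Alternatives were DESeq2 1.42.0, other scalings and filters, a fit of all 12 libraries, a replicate block, the adjusted p alone, counts summed over families, and leaving out each library.

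Members were named by role: B2m, the class Ia genes, the main class II genes and all genes of peptide supply, the immunoproteasome and Cd1d1 in every library, and in each comparison the called members at either end of the log2 fold changes, 3 at each end, that had at least 5 CPM in the higher group. H2-Q4, H2-Q7 in the comparisons with SB4 and the other members outside this rule were added after their values were seen. Levels per kilobase used exon lengths of GENCODE M21, and counting intervals and intervals of shares were exact at 95%. Promoter windows are from RefSeq, and the kappaB and interferon motifs were searched in shortened forms.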

Additional observations from a re-analysis of the deposited data

Results flagged for a closer look

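The change over time differed between the labelled tissues for 34 of the 36 members tested, by the contrast of BS6 vs. BS2 minus SB4 vs. SB2 over all 12 libraries in edgeR (73.6% of all genes tested passed). The difference was above 0 for every member that follows. Among class II genes the log2 difference was 15.40 for H2-Ea-ps, 13.54 for Cd74, 13.17 for H2-Eb1, 11.81 for H2-Ab1, 2.97 for Ciita and 1.97 for H2-DMa. It was 12.04 for Cd1d1. Among class I genes it was 10.04 for H2-Q5, 8.89 for H2-K1, 8.52 for H2-Q6, 7.82 for H2-D1 and 7.31 for B2m. Among genes of peptide supply it was 8.49 for Tap1, 7.39 for Tap2, 6.60 for Tapbp, 3.56 for Erap1 and 3.12 for Tapbpl. Among proteasome genes it was 9.15 for Psmb9, 8.98 for Psmb8, 4.17 for Psme2 and 3.72 for Psme1. H2-Ea-ps, Cd74, H2-Eb1, H2-Ab1, Cd1d1, H2-Q5, H2-K1, H2-Q6, Psmb9 and Psmb8 each had a brain-rich library under 10 counts, and their values are a description. The libraries labelled SB2 and BS6 were rich in bone transcripts and those labelled SB4 and BS2 in brain transcripts, so labelled tissue and tissue content cannot be told apart in this contrast.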

How the results depend on the processing

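SB4 vs. SB2 gave 25 to 28 lower in all settings except the filter on at least 10 counts in every library, which tested fewer genes and gave 17, with 0 higher. DESeq2, no filter and the fit of all 12 libraries gave 4 higher, and leaving out 1 library 2 to 4. Upper-quartile scaling moved the median of all genes in this comparison to -0.14. BS6 vs. BS2 gave 16 higher and 0 lower under the stricter filter.

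BS6 vs. SB2 gave 0 higher with the replicate block and 0 to 13 without 1 library. With the block 27 members were higher at an unadjusted p below 0.05, and without it 14.6% of all genes were. Same-numbered libraries correlated at -0.131 to 0.0931, so no pairing by number was seen. With 3 libraries a group these correlations cannot exclude one. Total counts as scaling gave 12 members higher and changed the split over all genes from 182 higher and 121 lower to 125 and 163. SB4 vs. BS2 gave 2 higher by DESeq2 and by adjusted p alone, 3 with no filter, 0 with the stricter filter and in the fit of all 12 libraries, and 0 to 9 without 1 library. The cause was not tested.

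Signs changed only for values near 0. Erap1 in BS6 vs. SB2 was 0.024 with all 12 libraries and ran from -0.075 to 0.078 without 1 library. In SB4 vs. BS2 the replicate block gave 0.0044 for Cd74 and -0.018 for Ciita. Without 1 library the log2 values ran from -0.36 to 0.72 for Cd74, -0.19 to 0.32 for Ciita, -0.066 to 0.17 for Tapbp, -0.11 to 0.021 for Psmb10, -0.11 to 0.067 for Psme1 and -0.25 to 0.062 for Psme2.

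With 3 libraries a group, the smallest p of an exact test is 0.1, so calls rest on the spread shared across genes. Class II chains other than H2-DMa had at most 9 counts in any brain-rich library, and none of them was tested in SB4 vs. BS2.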

Other observations

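H2-Q7 was one of 3 of 22317 genes with at most 3 counts over the 6 libraries of day 2 and at least 30 in each later group, a rule chosen after its values were seen, and the reverse pattern held for 0 genes. The others were Gm14018, with 57 counts in SB4 and 61 in BS6, and Zfp979, with 34 and 325, and both had 0 counts on day 2. H2-Q7 itself had 67 and 1097. In each later group every library held counts of all 3 genes, from 4 for H2-Q7 in SB4 replicate 3 upward.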
